A study of Homo sapiens with 18 samples.

Results

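The genes of DNA replication and S phase were examined as a set of 42 symbols, taken by name. No measured value entered the rule, but earlier results of these data were known when the set was chosen. The set holds the subunits and loaders of the replicative helicase, the proteins of the replication fork, the enzymes that supply deoxynucleotides, chromatin assembly factors and cyclins with E2F1. Of the 42, 41 had an identifier in the count table, had counts and passed the filter on low counts, out of 16678 genes tested in all; UHRF1 was not analysed here.

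THP-1 is an established cell line from a human acute monocytic leukaemia. In all, 3 conditions were compared, each in 3 unstimulated libraries (replicates 1 to 3) and 3 LPS-stimulated libraries (replicates 4 to 6): KD, which received 25 nM of an siRNA against TRAFD1, SCR, which received a non-targeting siRNA at that dose, and WT, which received none. Lipopolysaccharide (LPS, a bacterial cell wall component) was given at 10 ng/ml, or medium in its place, for 4 h at 72 h after transfection. The labels disagree on whether WT cells had the transfection mix or nothing, so a difference between SCR and WT cannot be assigned to reagent or siRNA. All libraries come from 1 cell line grown in triplicate.

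A cell licenses its replication origins in G1, when ORC, CDC6 and CDT1 load the MCM2 to MCM7 ring onto DNA. Cyclin-dependent kinases then fire the origins, CDC45 and the GINS complex turn the ring into an active helicase, and polymerases, the PCNA clamp and its RFC loader copy the strands. Most of these genes are classical targets of the E2F transcription factors, and their mRNAs rise as dividing cells approach S phase. In bulk RNA, more cells in S phase and more RNA per cell of the same gene cannot be told apart.

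The start sites of the members that later passed the test together are shown first, because E2F and CCAAT-binding factors are the classical regulators of this set. RefSeq promoter windows (GRCh38.p14, 250 bases before to 50 after a start site) were matched by symbol for 36 of the 42 members, and each window printed here matched GRCh37 exactly once. They are chr3:127317004-127317303 on the plus strand for MCM2, chr22:19467193-19467492 plus for CDC45, chr3:186524222-186524521 minus for RFC4, chr2:10262616-10262915 plus for RRM2 and chr2:136633964-136634263 minus for MCM6. Where a gene had several windows, the one with the most E2F words, then the most CCAAT words, is shown. MCM6 is included because it held the most E2F words of the set. Capitals mark the E2F words TTTCGCGC, TTTGGCGC, TTTCCCGC and TTTGCCGC and the word CCAAT, on either strand.
MCM2: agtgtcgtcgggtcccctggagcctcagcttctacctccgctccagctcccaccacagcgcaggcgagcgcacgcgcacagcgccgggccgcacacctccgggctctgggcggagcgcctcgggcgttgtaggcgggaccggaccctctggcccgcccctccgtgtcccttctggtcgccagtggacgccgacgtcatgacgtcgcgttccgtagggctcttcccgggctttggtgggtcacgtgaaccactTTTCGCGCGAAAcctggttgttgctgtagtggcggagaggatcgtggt
CDC45: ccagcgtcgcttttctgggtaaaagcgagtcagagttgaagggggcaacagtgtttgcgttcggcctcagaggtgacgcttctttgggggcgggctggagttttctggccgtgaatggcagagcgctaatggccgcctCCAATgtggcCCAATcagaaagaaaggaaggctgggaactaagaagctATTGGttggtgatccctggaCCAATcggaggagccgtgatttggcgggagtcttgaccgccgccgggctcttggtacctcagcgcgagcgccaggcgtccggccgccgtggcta
RFC4: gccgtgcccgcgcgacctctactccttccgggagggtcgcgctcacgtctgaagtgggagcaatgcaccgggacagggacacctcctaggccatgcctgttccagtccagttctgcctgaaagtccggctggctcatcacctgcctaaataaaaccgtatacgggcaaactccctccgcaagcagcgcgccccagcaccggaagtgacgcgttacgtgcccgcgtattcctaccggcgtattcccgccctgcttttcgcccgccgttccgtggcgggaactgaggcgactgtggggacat
RRM2: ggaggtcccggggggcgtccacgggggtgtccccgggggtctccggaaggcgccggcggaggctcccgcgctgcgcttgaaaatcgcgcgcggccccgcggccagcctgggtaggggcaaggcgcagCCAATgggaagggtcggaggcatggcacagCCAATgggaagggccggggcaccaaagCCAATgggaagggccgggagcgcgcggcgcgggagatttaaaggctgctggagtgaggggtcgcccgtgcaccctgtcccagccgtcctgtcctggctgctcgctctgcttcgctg
MCM6: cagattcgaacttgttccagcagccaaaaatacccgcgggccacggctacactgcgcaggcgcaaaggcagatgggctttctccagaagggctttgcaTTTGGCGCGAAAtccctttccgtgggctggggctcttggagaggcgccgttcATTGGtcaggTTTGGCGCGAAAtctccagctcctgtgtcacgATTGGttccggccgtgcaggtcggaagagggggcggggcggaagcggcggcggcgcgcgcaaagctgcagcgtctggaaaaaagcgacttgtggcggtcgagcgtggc

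MCM2 held 2 overlapping E2F words, which start 3 and 7 bases into the transcript. MCM6 held 4, overlapping in pairs. CDC45 had 4 CCAAT words and RRM2 had 3, and neither held any of the listed E2F words. RFC4 held none of the listed words in its window. Only these exact words were counted, so close forms, such as TTTGGCGG in the CDC45 window, are left out. A window without a listed word is thus not shown to lack an E2F site. At least 1 E2F word stood in the windows of 19 of 36 members (52.8%), 2 of 28 mitosis genes (7.14%) and 1090 of 27305 genes with a window (3.99%). CCAAT stood in 22 of 36 members (61.1%), 25 of 28 mitosis genes (89.3%) and 39.7% of all genes. By promoter, 3.31% of 35116 windows held an E2F word and 34.6% held CCAAT. These are matches of letters and no factor binding was measured.

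Library totals ran from 8206023 to 22344279 counts, and the limit that a count of 0 allows (3 counts) was 0.134 to 0.366 CPM. CPM are counts scaled to 1e6 of the TMM-scaled library total. Since 1 fragment is read per transcript, gene length does not enter them. Reads were counted only near the annotated end of each gene, so transcripts that end elsewhere can be missed. A comparison of CPM between genes is limited by this. The limits for a count of 0 cover counting error only. TRAFD1, the siRNA target, was 8.67 ± 3.14 CPM in unstimulated KD against 23.7 ± 3.38 CPM in SCR (SD, n = 3 each), lower in KD by edgeR (log2 -1.45, adjusted p = 0.0277). With LPS it was 14.5 ± 1.12 CPM in KD against 22.7 ± 4.42 CPM in SCR (log2 -0.65, edgeR adjusted p = 0.262), so the LPS libraries labelled KD show no called loss of the target. LPS raised IL1B and CXCL8 in every condition, by log2 fold changes of 3.34 or more. Monocyte markers were present (SPI1 at 44.5 to 115 CPM, FCGR1A at 249 to 342 CPM), apart from CEBPA at 0 to 2 counts and MPO at 2 to 49 counts. Summed markers of other cells reached at most 0.616 CPM for T cells, 6.28 for B cells, 3.16 for epithelium and 3.81 for fibroblasts.

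The members spanned a wide range of counted levels. Only reads near the annotated gene end were counted. The order of genes here and by role below may thus differ from that of their transcripts, which was not tested. The most abundant, by the mean of the 6 group means, were FEN1 (254 CPM), the nuclease that trims Okazaki fragments, CCND3 (232 CPM), a D-type cyclin, MCM3 (190 CPM) and RRM1 (160 CPM), the large subunit of ribonucleotide reductase. Neighbours in this order, such as CCND3 at 207 to 252 CPM and FEN1 at 220 to 284 CPM over the group means, overlapped in their ranges. CCND2 was at 0 to 27 counts in a library, 0 to 1.81 CPM, and no fold is drawn from it. Its fitted values enter the counts and medians below and depend on the prior count.

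By role, all given as means of the 6 group means, the other subunits of the MCM ring stood at 106 CPM for MCM2, 95.2 for MCM4, 76.2 for MCM7, 53.1 for MCM5 and 36.7 for MCM6. CDC45 stood at 16.7 CPM, and the 4 GINS subunits at 22.4 for GINS1, 13.3 for GINS2, 18.1 for GINS3 and 8.98 for GINS4. Of the licensing and initiation factors, the MCM loaders CDC6 and CDT1 were at 47.6 and 44.0 CPM, the origin recognition subunits ORC6 and ORC1 at 38.9 and 11.5 CPM, and MCM10, which acts as the helicase is activated, at 33.7 CPM.

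At the fork, PCNA stood at 34.5 CPM and its loader subunits at 70.7 for RFC4, 25.2 for RFC3, 25.2 for RFC5 and 13.9 for RFC2. LIG1, which seals nicks between Okazaki fragments, was at 30.0 CPM and RPA2, a single-strand binding subunit, at 34.6 CPM. Polymerase genes were lower, at 22.0 CPM for POLE, 20.2 for POLA2, 11.3 for POLA1, 8.58 for POLD1, 4.73 for the primase PRIM1 and 3.43 for POLE2. The nucleotide enzymes TYMS, TK1 and RRM2 stood at 86.7, 48.6 and 37.8 CPM, and the chromatin assembly subunits CHAF1A and CHAF1B at 30.6 and 10.2 CPM. The regulators E2F1, CCNE1 and CCNE2 stood at 19.4, 12.7 and 6.51 CPM.

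Over the 6 groups most members moved little. For 40 of the 41 the ratio of the highest to the lowest group mean ran from 1.19 (CHAF1A) to 3.05 (CCNE2). RRM2 had a ratio of 1.81 and POLD1 one of 1.89. Within a group, the median coefficient of variation was 4.66% for RFC4, 9.54% for RRM2, 19.3% for POLD1 and 30.0% for CCNE2.

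Summed over the 41 members, the level was 1860 to 1890 CPM in unstimulated WT, 2100 to 2200 CPM in SCR and 2100 to 2150 CPM in KD. Both siRNA groups thus lay above WT with no overlap. With LPS it was 1870 to 1920 CPM in WT, 2050 to 2080 CPM in SCR and 1870 to 2090 CPM in KD, where replicate 6 was the lowest. That library was the lowest of its group for 24 of the 41 members and replicate 4 the highest for 26. For the mitosis genes these numbers were 12 and 9 of 34. The summed level of the 10 monocyte markers was 459 to 534 CPM in unstimulated WT, 540 to 608 CPM in SCR and 577 to 645 CPM in KD. Mitochondrial genes held 3.19% to 3.37%, 3.28% to 3.47% and 3.87% to 4.86% of these libraries' counts. The part of either in the results below was not tested.

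**Figure D1:**
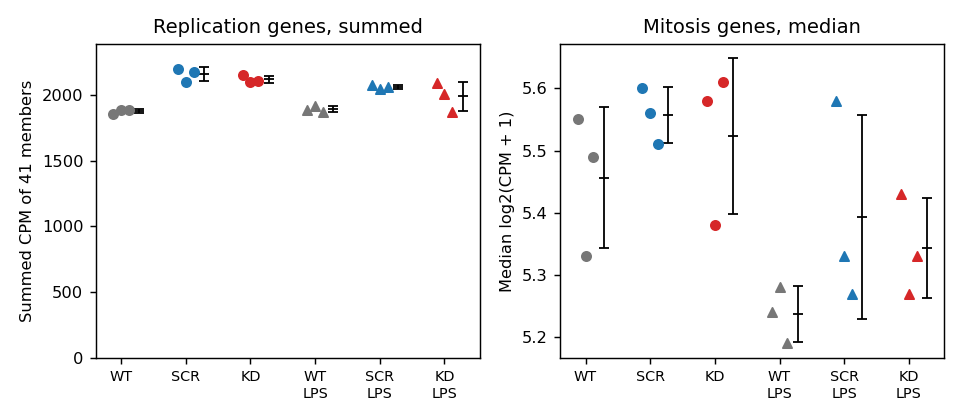
Summed CPM of the 41 members with counts (left) and median log2(CPM + 1) of 34 mitosis genes (right, axis not from 0) in each library, with circles for unstimulated and triangles for LPS-stimulated cells and black bars for the mean ± SD of 3 libraries. The 3 unstimulated WT libraries sit at 1860 to 1890 CPM and the SCR and KD libraries at 2100 to 2200 CPM.

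SCR was compared with WT to see how the control siRNA group stood against cells given no siRNA. In unstimulated cells 4 members rose and 0 fell. They were RRM2, CDC45, RFC4 and MCM2, which act in nucleotide supply, the helicase, clamp loading and the MCM ring. Over all genes 1.78% were called higher, 1.45% lower and 3.23% in either direction. The log2 fold change was above 0 for 37 of 41 members (50.6% of all genes), with a median of 0.21 against 0.006 over all genes. SCR libraries all lay above all WT libraries for 18 members, and all below for none, where 11.1% of all genes lay wholly above, 11.5% wholly below and 22.6% did not overlap in either direction.

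RRM2 (ENSG00000171848, chromosome 2, 10260825 to 10351851, GRCh37 like all positions below) encodes the small subunit of ribonucleotide reductase, which makes deoxynucleotides. It stood at 25.2, 22.2 and 25.8 CPM in unstimulated WT and at 34.5, 45.8 and 37.0 CPM in SCR. The groups did not overlap, and the mean was 24.4 ± 1.92 against 39.1 ± 5.90 CPM (SD, n = 3 each), 1.59-fold higher in SCR (log2 0.67, SE 0.13, edgeR adjusted p = 0.00729). The call held in all 6 fits that left out 1 library (adjusted p 0.0112 to 0.0450) and under the other settings run.

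CDC45 (ENSG00000093009, chromosome 22, 19466980 to 19508135) is the helicase cofactor that joins the MCM ring as origins fire. It stood at 12.8, 11.4 and 13.7 CPM in unstimulated WT and at 22.4, 17.9 and 19.7 CPM in SCR. The groups did not overlap and SCR was 1.58-fold higher (log2 0.66, SE 0.17, edgeR adjusted p = 0.0381). Leaving out any 1 of the 6 libraries ended the call (edgeR adjusted p 0.0509 without SCR replicate 2 to 0.180 without SCR replicate 1), while the log2 fold change stayed at 0.57 to 0.73.

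RFC4 (ENSG00000163918, chromosome 3, 186507669 to 186524847) is a subunit of the complex that loads PCNA. It stood at 57.9, 72.1 and 51.0 CPM in unstimulated WT and at 86.7, 86.3 and 80.7 CPM in SCR. WT spread more widely than SCR but did not reach it, and SCR was 1.41-fold higher (log2 0.49, SE 0.11, edgeR adjusted p = 0.0188). The call was lost without WT replicate 1 (adjusted p 0.0745), WT replicate 3 (0.114), SCR replicate 1 (0.0775) or SCR replicate 2 (0.0559), and in a fit to these 2 groups alone (0.0508). In the GENCODE v44lift37 models the last 500 bases of RFC4 overlap an exon of EIF4A2 on the other strand. The study counted on an older Ensembl annotation that it modified, so the counted bases may differ. No strand setting of the counting is given in the sources used here, so reads of the pair cannot be told apart there. EIF4A2 itself had a log2 fold change of 0.18 (edgeR adjusted p = 0.633).

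MCM2 (ENSG00000073111, chromosome 3, 127317253 to 127341279), a subunit of the helicase ring, stood at 100, 103 and 84.9 CPM in unstimulated WT and at 132, 120 and 126 CPM in SCR. The groups did not overlap and SCR was 1.31-fold higher (log2 0.39, SE 0.10, edgeR adjusted p = 0.0403). The call was lost without WT replicate 1 (adjusted p 0.0757) or 3 (0.193) and without SCR replicate 1 (0.157), 2 (0.0634) or 3 (0.103). It was also lost in a fit to the 2 groups alone (0.0597) and without the filter on low counts (0.0573). In the GENCODE v44lift37 models MCM2 and CDC45 each overlap an exon of a long non-coding RNA on the other strand in their last 500 bases.

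**Figure D2:**
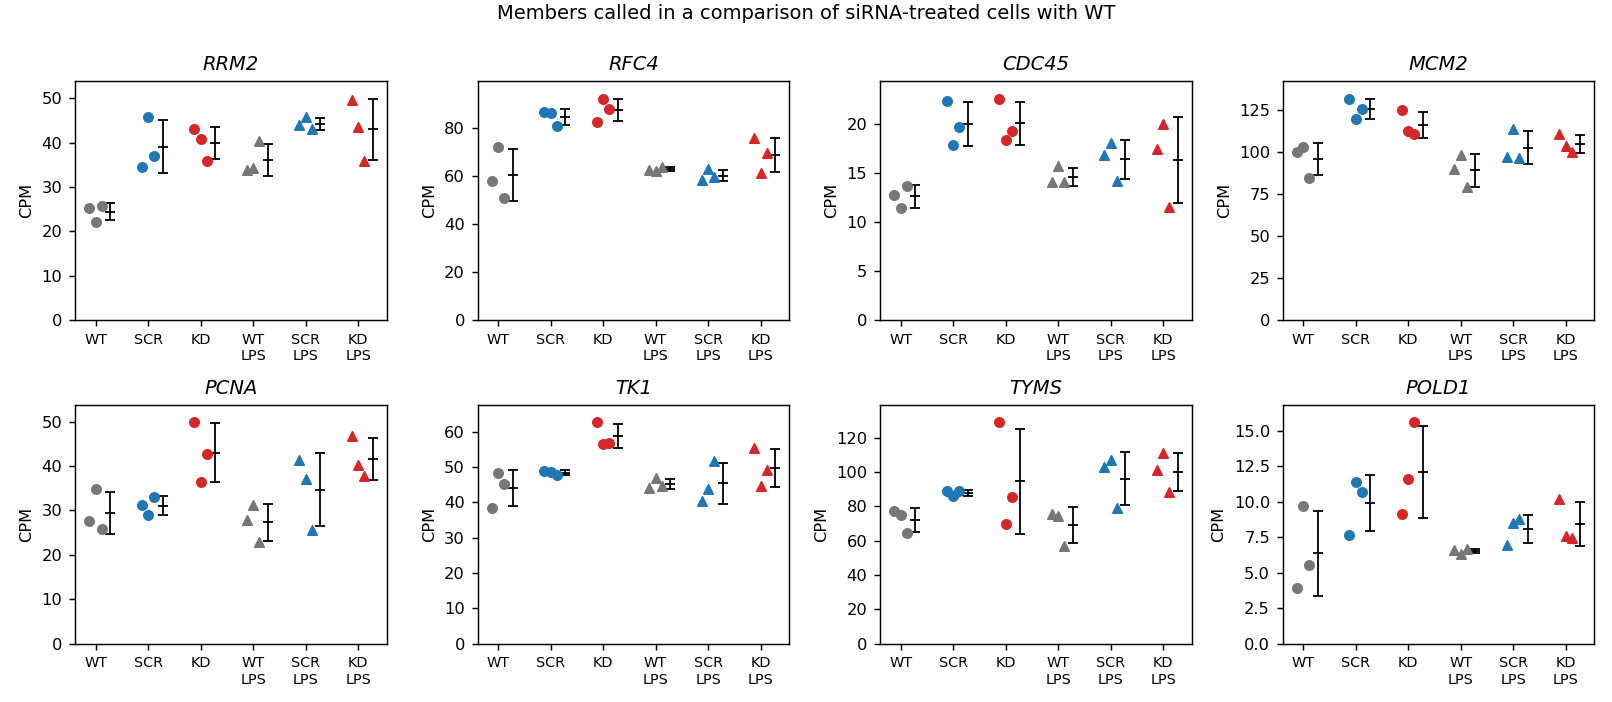
CPM in each library of the 8 members called in a comparison of SCR or KD with WT, with circles for unstimulated and triangles for LPS-stimulated cells and black bars for the mean ± SD of 3 libraries. RRM2 is the clearest case, with unstimulated WT at 22.2 to 25.8 CPM and every other library at 33.9 CPM or above.

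The direction of the SCR against WT difference in unstimulated cells is given here by role. Of 11 helicase members 10 had a log2 fold change above 0 in SCR against WT, as did 5 of 5 licensing members, 13 of 14 fork members, 4 of 4 nucleotide members and 2 of 2 chromatin members. Of the 5 regulators 3 did. Among members that did not pass, GINS2 and GINS1 of the GINS complex had log2 fold changes of 0.44 and 0.39 (edgeR adjusted p = 0.102 and 0.124), MCM10 one of 0.39 (0.121) and the clamp loader subunit RFC3 one of 0.40 (0.127). CDC6 had one of 0.23 (0.259) and PCNA one of 0.09 (0.845). The cyclins CCNE1 and CCND3 stood at -0.01 and -0.05, and E2F1 at 0.20.

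CCND2, a D-type cyclin near the detection limit here, held 7, 1 and 8 counts in unstimulated WT and 27, 14 and 12 in SCR. KD held 27, 11 and 11. These are 0.396, 0.0908 and 0.356 CPM in WT, 1.20, 1.28 and 0.924 CPM in SCR and 1.81, 0.909 and 0.855 CPM in KD. The groups did not overlap with WT, yet neither comparison passed the test (edgeR adjusted p = 0.240 for SCR and 0.139 for KD).

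With LPS, SCR against WT had no called member by edgeR, where 0.114% of all genes were called, 0.0240% higher and 0.0899% lower. Before adjustment, 7 members had p under 0.05 by edgeR (13.7% of all genes) and 5 by DESeq2, which also called 0, while edgeR without the filter on low counts called 2. The log2 fold change was above 0 for 31 of 41 members (51.2% of all genes), with a median of 0.14 against 0.009. SCR lay wholly above WT for 11 members and wholly below for 0, where 10.6% of all genes lay wholly above, 12.2% wholly below and 22.8% did not overlap in either direction. Among these were ORC6 (log2 0.53, SE 0.18, edgeR adjusted p = 0.222), a subunit of the origin recognition complex, TYMS (0.48, SE 0.17, 0.244), thymidylate synthase, and GINS1 (0.43, SE 0.14, 0.203). CCNE2 was also wholly above, with the largest log2 fold change of the members (0.84, not called). It stood at 11.2, 11.8 and 8.78 CPM in SCR and 7.10, 4.85 and 5.78 CPM in WT. The mitosis genes had a median of 0.18 in this comparison, against 0.03 without LPS.

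KD against WT shares its WT libraries with the comparison above, and the doubt over the treatment of WT applies to it too. In unstimulated cells 6 members rose and 0 fell, where 5.85% of all genes were called in each direction and 11.7% in either. They were RRM2, RFC4 and CDC45 with TK1, POLD1 and PCNA. The log2 fold change was above 0 for 34 members (49.1% of all genes), with a median of 0.24 against -0.008. KD lay wholly above WT for 13 members (10.8% of all genes) and wholly below for ORC1 alone (13.5% of all genes).

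RRM2 stood at 43.0, 40.7 and 35.9 CPM in unstimulated KD, above all 3 WT libraries (log2 0.70, SE 0.13, edgeR adjusted p = 0.00174), and this call held without each library. RFC4 stood at 82.7, 92.0 and 88.0 CPM (log2 0.54, SE 0.11, edgeR adjusted p = 0.00343) and held likewise, but not in a fit to the 2 groups alone (0.0739). CDC45 stood at 22.6, 18.4 and 19.3 CPM (log2 0.66, SE 0.17, edgeR adjusted p = 0.0155). None of these KD libraries overlapped with WT, and the KD values lay among or near those of SCR. The CDC45 call was lost without WT replicate 2 (adjusted p 0.0524) or KD replicate 1 (0.0535) and in the 2 groups alone (0.0638).

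PCNA (ENSG00000132646, chromosome 20, 5095599 to 5107272), the sliding clamp that holds polymerases on DNA, stood at 27.6, 34.8 and 25.8 CPM in unstimulated WT, 31.2, 29.0 and 33.1 CPM in SCR and 49.8, 36.5 and 42.7 CPM in KD. Every KD library lay above every WT and SCR library. KD was 1.47-fold above WT (log2 0.56, SE 0.17, edgeR adjusted p = 0.0334) and did not differ past the threshold from SCR (log2 0.47, SE 0.17, 95% interval 0.12 to 0.81 before adjustment, edgeR adjusted p = 0.229). The call against WT was lost without WT replicate 1 (adjusted p 0.104) or 3 (0.157), KD replicate 1 (0.111) or 3 (0.0677), and in the 2 groups alone (0.0946).

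TK1 (ENSG00000167900, chromosome 17, 76170172 to 76183314), the S-phase thymidine kinase, stood at 38.5, 48.4 and 45.1 CPM in unstimulated WT, 48.8, 48.7 and 47.7 CPM in SCR and 62.6, 56.6 and 56.9 CPM in KD. KD again lay above both other groups, with a log2 difference of 0.42 to WT (SE 0.11, edgeR adjusted p = 0.0203) and of 0.28 to SCR (SE 0.11, edgeR adjusted p = 0.302). The call against WT was lost without WT replicate 1 (adjusted p 0.110) or 3 (0.0572) or KD replicate 1 (0.0591), in the 2 groups alone (0.116) and without the filter (0.0534).

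POLD1 (ENSG00000062822, chromosome 19, 50887461 to 50921275), the catalytic subunit of DNA polymerase delta, stood at 3.90, 9.72 and 5.56 CPM in unstimulated WT and 9.13, 11.6 and 15.6 CPM in KD. SCR stood at 7.64, 11.4 and 10.7 CPM and overlapped with both. WT replicate 2 lay inside the KD range, so KD and WT overlapped although the test called POLD1 (log2 0.95, SE 0.27, edgeR adjusted p = 0.0233). Omitting WT replicate 1 gave an adjusted p of 0.123, omitting WT replicate 3 gave 0.109, omitting KD replicate 3 gave 0.118, and the 2 groups alone gave 0.145.

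With LPS, KD against WT had 2 members called higher and 0 lower, where 6.29% of all genes were called higher, 4.55% lower and 10.8% in either direction. PCNA stood at 27.8, 31.3 and 23.0 CPM in WT, 41.4, 37.1 and 25.6 CPM in SCR and 46.7, 40.3 and 37.7 CPM in KD. KD lay wholly above WT and overlapped with SCR, and the log2 fold change against WT was 0.60 (SE 0.17, edgeR adjusted p = 0.0265). The call was lost without WT replicate 4 (adjusted p 0.0663) or 6 (0.158) and without KD replicate 4 (0.102) or 5 (0.0692).

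TYMS (ENSG00000176890, chromosome 18, 657653 to 673578), which makes thymidylate, stood at 75.8, 74.6 and 56.9 CPM in LPS-stimulated WT and 101, 111 and 88.6 CPM in KD, with no overlap (log2 0.53, SE 0.17, edgeR adjusted p = 0.04998). SCR with LPS stood at 103, 107 and 78.9 CPM and overlapped with KD. The call of KD against WT was at the threshold and was lost in each of the 6 fits that left out 1 library (adjusted p 0.0566 without KD replicate 6 to 0.238 without WT replicate 6). In the GENCODE v44lift37 models the last 500 bases of TYMS overlap ENOSF1 on the other strand. ENOSF1 had a log2 fold change of -0.12 (edgeR adjusted p = 0.727). Over the set, 25 of 41 members were above 0 (50.4% of all genes), with a median of 0.09 against 0.004, and 13 did not overlap between the groups (9 higher and 4 lower, where 35.0% of all genes did not, 18.6% higher and 16.4% lower).

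KD against SCR compares the siRNA against TRAFD1 with the non-targeting siRNA, and shares the SCR libraries with the comparison of SCR with WT. With a single siRNA against TRAFD1, loss of the target cannot be told apart from other effects of either sequence. No member was called by edgeR in unstimulated cells, where 0.0660% of all genes were (0.0240% higher and 0.0420% lower), or with LPS, where 0% were. On simulated counts the test found 11% and 5% of 1.4-fold changes in these comparisons, so changes of that size can go uncalled. The changed genes were drawn from all genes tested, so these shares are not rates for the members. At an unadjusted p under 0.05 edgeR gave 4 members without LPS (12.6% of all genes) and 2 with LPS (11.8% of all genes), and DESeq2, which called 0 in both, gave 5 and 2. The median log2 fold change was 0.02 over the members against -0.009 over all genes without LPS, and -0.06 against 0.016 with LPS. The 2 groups did not overlap for 6 members without LPS (3 higher and 3 lower, against 15.1% of all genes, 6.45% higher and 8.63% lower) and for 5 with LPS (0 higher and 5 lower, against 21.5% of all genes, 10.8% higher and 10.7% lower).

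The members nearest to a call without LPS were ORC1 and PCNA. ORC1, the largest origin recognition subunit, stood at 11.4, 12.3 and 12.2 CPM in SCR and 6.78, 9.25 and 9.64 CPM in KD (log2 -0.48, SE 0.17, edgeR adjusted p = 0.215). Its KD libraries lay below the SCR and the WT libraries, the latter at 9.83, 9.72 and 10.5 CPM. With LPS it was RRM1, at 180, 172 and 189 CPM in SCR and 146, 161 and 132 CPM in KD (log2 -0.30, SE 0.10, edgeR adjusted p = 0.234), again with no overlap.

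A fixed set of anchor members were reported whatever their p. Their 95% intervals for KD against SCR without LPS, before adjustment, were -0.16 to 0.40 for MCM5, -0.20 to 0.25 for CDC6, -0.24 to 0.31 for RRM2, -0.25 to 0.46 for TYMS, -0.26 to 0.58 for E2F1, -0.27 to 0.39 for CCNE1 and -0.15 to 0.23 for CCND3. With LPS they were -0.36 to 0.20, -0.31 to 0.14, -0.32 to 0.23, -0.30 to 0.41, -0.49 to 0.37, -0.64 to 0.03 and -0.22 to 0.16 in that order, and -0.08 to 0.61 for PCNA. All but those of PCNA without LPS hold 0, and none of these 16 reaches a log2 difference of 1 in either direction.

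**Figure D3:**
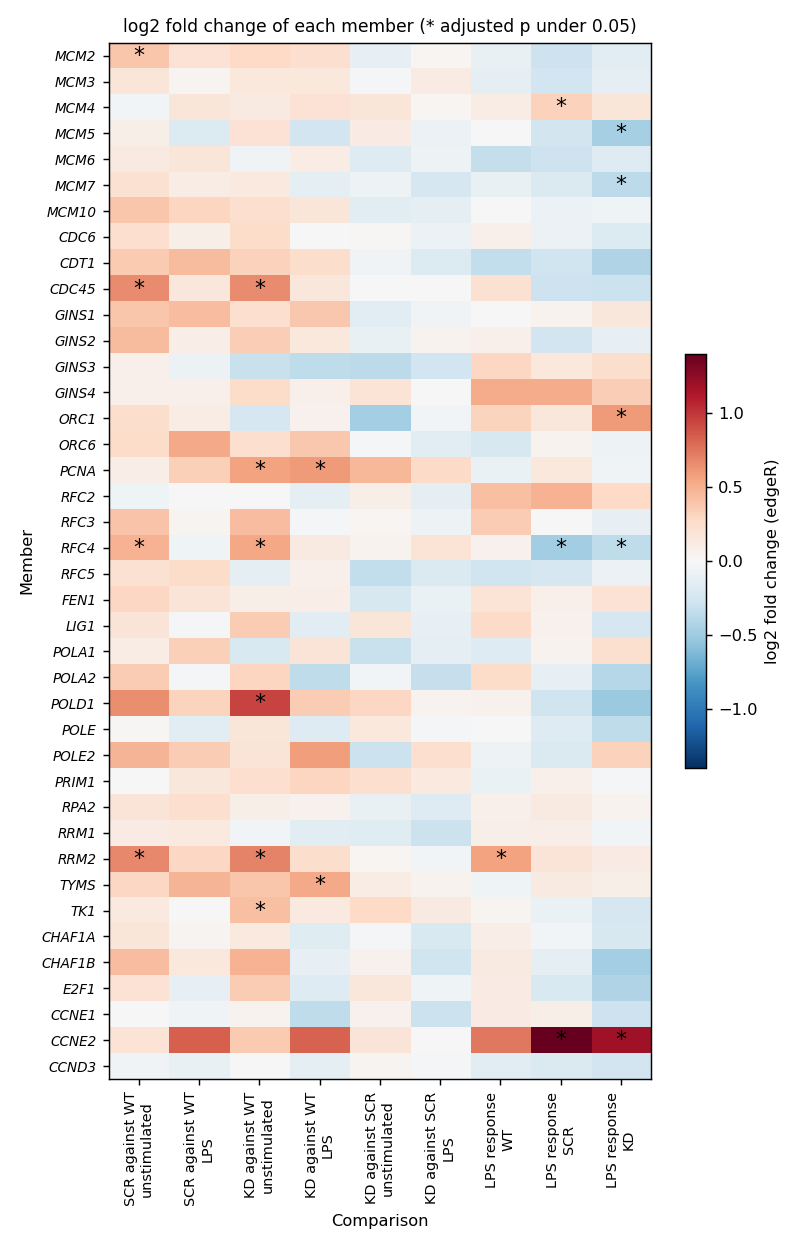
Log2 fold change (edgeR) of 40 members in the 6 siRNA comparisons and the 3 LPS responses, with red for higher, blue for lower and an asterisk for an adjusted p under 0.05; CCND2 is left out because of its low counts. The SCR against WT and KD against WT columns without LPS are mostly red and hold 4 and 6 asterisks, and the KD against SCR columns hold 0.

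The LPS response asks whether 4 h of stimulation moved the replication genes. In WT 1 member rose and 0 fell, where 7.01% of all genes rose and 14.3% were called in either direction. RRM2 stood at 33.9, 34.2 and 40.3 CPM in LPS-stimulated WT, above the 3 unstimulated WT libraries (log2 0.56, SE 0.13, edgeR adjusted p = 0.00646). The call held without each library in turn. In SCR, RRM2 stood at 44.0, 45.7 and 43.0 CPM with LPS (log2 0.18, SE 0.13, edgeR adjusted p = 0.383), and in KD at 49.6, 43.5 and 35.9 CPM (0.11, SE 0.13, 0.653). The differences of these responses from that of WT were -0.38 (SE 0.19, edgeR adjusted p = 0.516) and -0.45 (SE 0.19, 0.267) and did not pass.

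In SCR 2 members rose and 1 fell, and in KD 2 rose and 3 fell. Over all genes 8.64% rose and 8.56% fell in SCR, and 6.41% rose and 5.05% fell in KD. For WT, SCR and KD the median log2 fold change was 0.07, -0.08 and -0.12, against -0.03, -0.027 and -0.003 over all genes. Groups did not overlap for 7 members in WT (32.5% of all genes), 10 in SCR (37.3%) and 13 in KD (25.4%).

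CCNE2 (ENSG00000175305, chromosome 8, 95891998 to 95908906), a cyclin E that drives entry into S phase with CDK2, had the largest log2 fold changes of the called members. It stood at 5.20, 1.91 and 3.29 CPM in unstimulated WT and 7.10, 4.85 and 5.78 CPM with LPS, where the groups overlapped (log2 0.74, SE 0.34, edgeR adjusted p = 0.177). In SCR it stood at 3.60, 2.65 and 5.85 CPM without LPS and 11.2, 11.8 and 8.78 CPM with LPS. There the groups did not overlap, and CCNE2 rose 2.62-fold (log2 1.39, SE 0.34, edgeR adjusted p = 0.00624), a call that held without each library. In KD it stood at 7.05, 3.47 and 3.11 CPM without LPS and 12.1, 10.8 and 8.54 CPM with LPS. It rose 2.29-fold (log2 1.19, SE 0.33, edgeR adjusted p = 0.0227), also without overlap. The KD call was lost without unstimulated replicate 2 (adjusted p 0.0786) or 3 (0.117), without LPS replicate 4 (0.0761) or 5 (0.0660), and in the 2 groups alone (0.0547). These values rest on 21 to 180 counts a library. In the GENCODE v44lift37 models the last 500 bases of CCNE2 overlap INTS8 on the other strand. INTS8 had log2 fold changes of -0.25, 0.01 and 0.27 in WT, SCR and KD, with no call. CCNE1, the other cyclin E, had 0.12, 0.08 and -0.29, with no call.

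RFC4 fell with LPS in both siRNA conditions. In SCR it went from 86.7, 86.3 and 80.7 CPM to 58.4, 62.8 and 59.5 CPM (log2 -0.49, SE 0.11, edgeR adjusted p = 0.00451), and this call held without each library. In KD it went from 82.7, 92.0 and 88.0 CPM to 75.7, 61.2 and 69.5 CPM (log2 -0.35, SE 0.11, edgeR adjusted p = 0.0475). Neither pair of groups overlapped. In WT it stood at 62.5, 62.2 and 63.8 CPM with LPS, inside the range of unstimulated WT. The KD call was lost without unstimulated replicate 2 (adjusted p 0.132) or 3 (0.117), without LPS replicate 5 (0.221) or 6 (0.103), in the 2 groups alone (0.120) and without the filter (0.0740). The LPS response of RFC4 in SCR minus that in WT was -0.55 in log2 units (SE 0.16, unadjusted p = 0.00245), which did not pass (edgeR adjusted p = 0.279). EIF4A2, on the other strand, had LPS log2 fold changes of -0.12, 0.21 and 0.44 in WT, SCR and KD, with no call.

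With LPS in SCR, the MCM subunits had log2 fold changes in both directions, and they were not tested against each other. MCM4 (ENSG00000104738, chromosome 8, 48872745 to 48890720) rose in SCR from 77.9, 86.8 and 88.5 CPM to 111, 103 and 101 CPM (log2 0.32, SE 0.09, edgeR adjusted p = 0.0214), without overlap. The call was lost without unstimulated SCR replicate 1 (adjusted p 0.111), without LPS replicate 4 (0.101) and without the filter (0.0895). In the same comparison MCM3, MCM2 and MCM6 had log2 fold changes of -0.27, -0.29 and -0.29 (edgeR adjusted p = 0.0503, 0.0593 and 0.0782) and their groups did not overlap.

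In KD, MCM5 (ENSG00000100297, chromosome 22, 35796127 to 35821424) fell from 51.5, 66.3 and 67.1 CPM to 51.2, 45.6 and 37.8 CPM (log2 -0.46, SE 0.13, edgeR adjusted p = 0.0302). MCM7 (ENSG00000166508, chromosome 7, 99689856 to 99699563) fell from 76.3, 82.8 and 90.8 CPM to 73.8, 57.1 and 63.1 CPM (log2 -0.37, SE 0.11, edgeR adjusted p = 0.0298). In both, the highest LPS library lay just below the lowest unstimulated one. Both calls were lost without unstimulated replicate 2 (MCM5 adjusted p 0.0973, MCM7 0.0605) or 3 (0.131 and 0.145), without LPS replicate 5 (0.0816 and 0.171) or 6 (0.153 and 0.0947), and in the 2 groups alone (0.111 and 0.132). Without the filter MCM7 was also lost (0.0512). LPS replicate 6 is the KD library that was lowest for 24 of the 41 members.

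ORC1 (ENSG00000085840, chromosome 1, 52838501 to 52870095) rose with LPS in KD, from 6.78, 9.25 and 9.64 CPM to 12.6, 14.6 and 11.6 CPM (log2 0.60, SE 0.17, edgeR adjusted p = 0.0218), without overlap. The LPS level was 11.7, 12.8 and 12.8 CPM in WT and 14.4, 11.0 and 14.7 CPM in SCR, so the 3 conditions overlapped once stimulated. The call was lost without unstimulated replicate 1 (adjusted p 0.0737), LPS replicate 5 (0.130), in the 2 groups alone (0.139) and without the filter (0.0696). No member passed as an interaction, the test of whether the LPS response differs between conditions. Over all genes 0% passed for KD against SCR, 0.234% for SCR against WT and 0.360% for KD against WT. Before adjustment edgeR gave 0, 2 and 5 members with p under 0.05, against 7.64%, 9.96% and 15.5% of all genes. DESeq2 also called 0 and gave 0, 2 and 7.

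**Figure D4:**
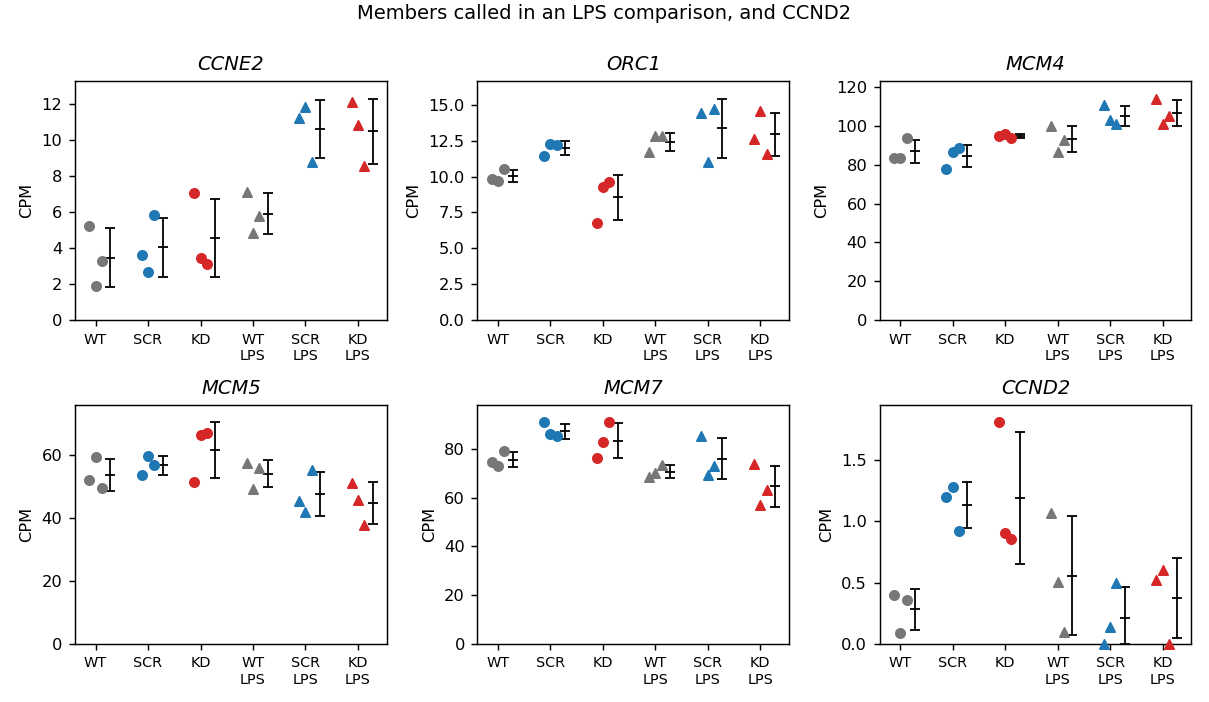
CPM in each library of 5 members called in an LPS comparison and of CCND2, with circles for unstimulated and triangles for LPS-stimulated cells and black bars for the mean ± SD of 3 libraries (cut at 0). CCNE2 reached 8.54 to 12.1 CPM in the LPS-stimulated SCR and KD libraries against 1.91 to 7.05 CPM in all unstimulated libraries.

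The mitosis genes served as the neighbouring cell cycle programme. Of 34 tested, 0 rose with LPS in any condition, while 11 fell in WT, 8 in SCR and 7 in KD, where 7.26%, 8.56% and 5.05% of all genes fell. Their median log2 fold changes were -0.28, -0.17 and -0.20. The replication members had 0, 1 and 3 called lower of 41. AURKA, a mitotic kinase, fell by 0.59, 0.44 and 0.34 on the log2 scale in WT, SCR and KD (edgeR adjusted p = 9.41e-05, 0.00186 and 0.0195), and was chosen after its values were seen. In SCR against WT and KD against WT without LPS, the only mitosis call was TOP2A, a DNA topoisomerase, with log2 fold changes of -0.41 and -0.43 (edgeR adjusted p = 0.0369 and 0.0113). These lists were not tested against each other.

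**Figure D5:**
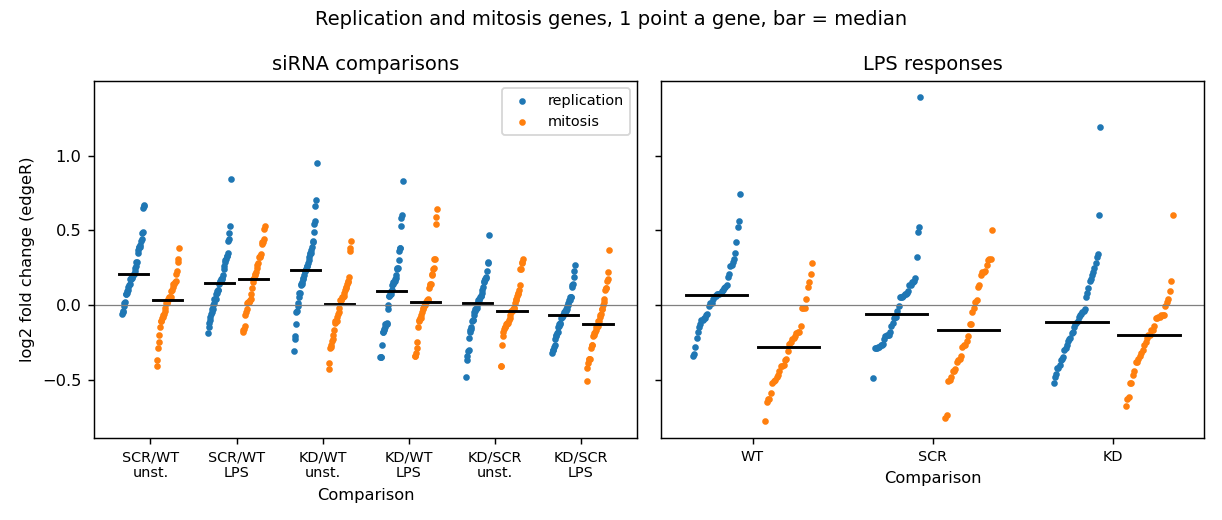
Log2 fold change (edgeR) of each replication member (blue, CCND2 left out) and each of 34 mitosis genes (orange) in the siRNA comparisons (left) and LPS responses (right), 1 point a gene and a black bar for the median. The mitosis medians lie at -0.28, -0.17 and -0.20 with LPS and the replication medians nearer to 0.

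A further 52 replication and G1/S genes outside the set gave 51 tested. In both SCR against WT comparisons and both KD against SCR comparisons 0 were called by edgeR, with 9 and 10 at an unadjusted p under 0.05 in the former pair (17.2% and 13.7% of all genes) and 9 and 12 in the latter (12.6% and 11.8%). In SCR against WT 35 of the 51 were above 0 without LPS (median log2 0.09) and 37 with LPS (median 0.18), where 50.6% and 51.2% of all genes were. In KD against SCR 18 and 21 were above 0 (medians -0.08 and -0.05), where 48.9% and 51.9% of all genes were. In KD against WT without LPS 4 rose and 5 fell, where 5.85% of all genes did so in each direction. TIPIN (log2 0.64) of the fork protection complex and CDK4 (0.55), the kinase partner of D-type cyclins, rose. E2F3 (-0.56), CDK2 (-0.54), the partner of cyclin E, RPA1 (-0.45), the large single-strand binding subunit, and NASP (-0.28), a histone chaperone, fell. Their edgeR adjusted p ran from 0.00297 to 0.0191. With LPS 8 rose and 2 fell, where 6.29% and 4.55% of all genes did. The smallest adjusted p belonged to NASP (-0.42), SLBP (1.14), which binds histone mRNA, ORC3 (0.80), MCMBP (0.59), TFDP1 (0.48), the E2F partner, and E2F7 (1.53), a repressor of the E2F family, with edgeR adjusted p from 0.00259 to 0.0279.

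With LPS against medium, 5 of these genes rose and 5 fell in WT, 6 and 6 in SCR and 6 and 3 in KD. Over all genes 7.01% rose and 7.26% fell in WT, 8.64% and 8.56% in SCR, and 6.41% and 5.05% in KD. CCND1, the D-type cyclin that growth signals induce, stood at 6.50, 6.08 and 6.72 CPM in unstimulated WT and 20.4, 20.7 and 20.5 CPM with LPS. For WT, SCR and KD its log2 fold changes were 1.67, 1.10 and 1.21 (SE 0.15 in each, edgeR adjusted p = 6.66e-08, 2.34e-05 and 9.4e-06), whereas the member CCND3 had -0.15, -0.20 and -0.27 (0.303, 0.132 and 0.0535). CDK6, a kinase partner of these cyclins, rose by 0.53, 0.88 and 0.78 (0.0153, 0.000239 and 0.00111). CDKN2D, an inhibitor of CDK4 and CDK6, fell by 1.26 in WT and 0.89 in SCR (1.06e-06 and 0.000114) and stood at -0.40 in KD (0.0642), and CDKN1A, an inhibitor of CDK2, fell by 0.48, 0.34 and 0.53 in WT, SCR and KD (0.00296, 0.0287 and 0.00157). All of these p are edgeR adjusted p.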

How the data were processed

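Per the labels and the study's methods, the authors made QuantSeq 3' libraries from total RNA, removed adaptors, poly-A and low-quality reads, aligned with HISAT to GRCh37 and counted with featureCounts over the last 500 bases of each gene. The deposited values are raw read counts per Ensembl gene, whole numbers in 18 columns, of which 0 were unused; 34092 of 63677 genes had counts. The strand setting is not given in the sources used here.

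Symbols were matched through GENCODE v44lift37, which also gave the gene positions and the overlaps on the other strand. It is newer than the modified Ensembl annotation on which the study counted, so gene ends may differ. CPM were computed from TMM-scaled totals, after filterByExpr by group (minimum count 10) had left 16678 genes. All 18 libraries entered 1 model of group means, tested by quasi-likelihood in edgeR 4.0.16 (limma 3.58.1, R 4.3.3), and p were adjusted by Benjamini-Hochberg over all genes tested, with a threshold of 0.05. The common biological coefficient of variation was 0.17. SE is the log2 fold change over the square root of F, so intervals are before adjustment. Nothing says that replicates were separate cultures beyond growth in triplicate, so p measure the spread between these libraries, which may be technical.

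The members and the gene lists were chosen with earlier results of these data known. Named were the members past the threshold (up to 8 per direction and comparison by adjusted p), MCM5, CDC6, PCNA, RRM2, TYMS, E2F1, CCNE1, CCND2 and CCND3 whatever their p, and, of 52 other replication genes, up to 6 called per comparison, of which 1 is not reported here. Genes on the opposite strand were added after the data were seen. Alternatives were RLE size factors, no filter, DESeq2 1.42.0 on all 18 libraries, the compared groups alone, a replicate block and leaving out each library.

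Same-numbered libraries were checked for shared deviations from their group means. Every pair exceeded 0.1 only in SCR and WT with LPS (r = 0.261, 0.163 and 0.253), from the data and not the design. Elsewhere r ran from -0.087 to 0.304. Libraries with different numbers were not compared, so these values do not show that the number pairs libraries. The test was also tried on simulated counts with known changes. In SCR against WT and KD against SCR without LPS, and KD against SCR with LPS, it recovered 4%, 11% and 5% of 100 genes changed 1.4-fold. Of 100 genes changed 2-fold it recovered 51%, 51% and 50%. The changed genes were drawn at random from all genes tested, whatever their level, so these shares are not rates for the members. A member without a call may still differ, within its own interval where one is given.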

Additional observations from a re-analysis of the deposited data

How the results depend on the processing

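Counts of called members were the same within 1.5 times under RLE size factors in every comparison, and under the replicate block wherever it applied. Whether the replicate number pairs libraries is not known in any comparison. With the block 0 were called in SCR against WT with LPS, as without it. It gave 5 in SCR against WT and 8 in KD against WT without LPS, and 3 in KD against WT with LPS. Fits to the compared groups alone gave 2 called members for SCR against WT and 1 for KD against WT without LPS, 4 for KD against WT with LPS, 7 for the LPS response in SCR and 0 for that in KD. Without the filter on low counts there were 2 for SCR against WT with LPS and 3 for the LPS response in KD. DESeq2 gave 5 for the LPS response in SCR. The causes were not tested.

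Leaving out 1 library at a time gave 1 to 4 called members for SCR against WT and 3 to 7 for KD against WT without LPS, 0 to 2 for KD against WT with LPS, and 1 to 3, 2 to 5 and 0 to 8 for the LPS response in WT, SCR and KD. The interaction of SCR with WT gave 0 to 1. KD against SCR gave 0 in every fit. Medians over the members stayed within the spread between libraries under every alternative. Members near 0 in KD against SCR changed sign without 1 library. Without LPS their ranges were -0.03 to 0.07 for CDC6, -0.05 to 0.16 for RRM2, -0.18 to 0.28 for TYMS, -0.04 to 0.33 for E2F1, 0.00 to 0.14 for CCNE1 and -0.01 to 0.08 for CCND3. With LPS they were -0.19 to 0.04 for MCM5, -0.15 to 0.07 for RRM2, -0.07 to 0.14 for TYMS, -0.14 to 0.05 for E2F1 and -0.10 to 0.03 for CCND3. The other gene lists were not repeated under the alternatives. Depth limits CCND2, at or near the limit that a count of 0 allows.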
